A study of Homo sapiens with 9 samples.

Results

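Transcripts of 10 genes of prostaglandin synthesis, breakdown and reception were followed through a knockdown of the aryl hydrocarbon receptor gene AHR in a breast cancer cell line. The members were 10 rows of the count table, of 60649 genes listed. Their symbols were PLA2G4A, PTGS1, PTGS2, PTGES, PTGES2, PTGIS, HPGD, PTGER2, PTGER4 and PTGFRN. Rows were taken by symbol, and the symbols were chosen with earlier results of these data known. RNA sequencing covered 9 libraries of MDA-MB-231, an established human triple-negative line labelled as mammary epithelial cells. A total of 3 groups of 3 libraries were compared: cells with the non-targeting control vector pLKO-GFP, and cells with either of 2 short hairpin RNAs against AHR, shAHR#2 and shAHR#3 in the numbering of the labels. All groups carried a lentiviral vector and had been selected with puromycin as pools, so no group was a single clone. Which hairpin sequence each label stands for is not settled here.

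Prostaglandins are made from arachidonic acid, which a phospholipase frees from membranes. The cyclooxygenases PTGS1 and PTGS2 turn it into an unstable intermediate, and terminal synthases turn that into one prostaglandin or another. PTGES makes prostaglandin E from it and PTGIS makes prostacyclin, HPGD inactivates the products, and receptors such as PTGER2 and PTGER4 pass the signal of prostaglandin E into the cell by raising cyclic AMP. In breast tumours this pathway is best known for PTGS2, an inducible gene linked to inflammation and invasion, while PTGS1 is the form usually present at a steady level. AHR is a transcription factor that small molecules activate, best known for switching on enzymes that break down foreign compounds.

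Promoter sequence is shown for 4 members that lie at opposite ends of the results below: PTGS2 and PTGER2, which were higher with shAHR#2, and PTGS1 and PTGFRN, which were lower. Each run is the 250 bases before a transcription start that RefSeq places on GRCh38, read 5′ to 3′ on the strand of the gene. Windows were given for 9 of the 10 members (13 windows). Capitals mark any match, on either strand, to GCGTG (the core bound by AHR with its partner ARNT; CACGC on the other strand), to TATAAA (the TATA box; TTTATA) or to TGACG (the half-site of the cyclic AMP response element; CGTCA). The first and last of these can share up to 2 bases where they meet, and the TATA box can overlap its own reverse form. The windows lie at chr1:186680424-186680673 (minus strand) for PTGS2, chr14:52314062-52314311 (plus) for PTGER2, chr9:122375052-122375301 (plus, the second of its starts) for PTGS1 and chr1:116909666-116909915 (plus) for PTGFRN.
PTGS2: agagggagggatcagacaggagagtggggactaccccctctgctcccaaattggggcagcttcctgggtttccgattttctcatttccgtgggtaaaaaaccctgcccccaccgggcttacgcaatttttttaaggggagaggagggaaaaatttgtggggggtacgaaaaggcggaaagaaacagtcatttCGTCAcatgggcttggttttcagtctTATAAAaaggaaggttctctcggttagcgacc
PTGER2: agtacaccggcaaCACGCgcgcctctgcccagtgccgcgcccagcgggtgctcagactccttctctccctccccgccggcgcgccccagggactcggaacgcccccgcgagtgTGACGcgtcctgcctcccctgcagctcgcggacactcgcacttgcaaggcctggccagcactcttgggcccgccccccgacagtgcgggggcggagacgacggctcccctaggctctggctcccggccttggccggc
PTGS1: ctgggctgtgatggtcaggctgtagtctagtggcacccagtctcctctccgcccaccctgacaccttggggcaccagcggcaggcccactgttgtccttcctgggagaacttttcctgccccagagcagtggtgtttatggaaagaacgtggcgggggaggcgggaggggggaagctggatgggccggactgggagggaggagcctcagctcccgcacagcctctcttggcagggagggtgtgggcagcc
PTGFRN: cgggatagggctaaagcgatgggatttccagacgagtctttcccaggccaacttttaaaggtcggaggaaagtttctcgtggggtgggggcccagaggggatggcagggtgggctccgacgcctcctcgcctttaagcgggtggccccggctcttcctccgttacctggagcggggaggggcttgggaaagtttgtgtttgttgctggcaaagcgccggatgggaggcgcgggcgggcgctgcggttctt

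The PTGS2 window held a TATA box that began 32 bases before the start and a cyclic AMP half-site 58 bases before it, and 50.4% of its bases were G or C. PTGER2 had a window of 74.0% G and C with a half-site at 137 bases and an AHR core at 237 bases. The printed PTGS1 window and that of PTGFRN, of 65.2% and 62.8% G and C, matched none of the 3 motifs, but the window before the first PTGS1 start, not printed and of 49.6% G and C, held the reverse letters of the TATA box at 208 bases. Among 35116 windows of the same length, 32.2% held the AHR core, 10.7% the TATA box and 21.2% the half-site, against 6, 2 and 3 of the 13 member windows. The 6 windows with an AHR core belonged to HPGD, PTGER2, PTGER4, PTGES and PTGES2. A match is a string of letters and was not tested for binding.

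Sums of counts ran from 15991396 to 20374460 reads per library, and 14274 genes with enough reads were tested, among them 9 of the 10 members. Levels are given in CPM, read counts scaled to a common library size by the trimmed mean of M-values (TMM). Fold changes are log2 values from edgeR's quasi-likelihood test, with p-values adjusted by Benjamini-Hochberg over all genes tested and called at 0.05. Counting noise did not account for the spread within groups, with a chi-square per degree of freedom of 1.76 to 4.22, so no library was a copy of another. AHR itself stood at 114 to 121 CPM in the control libraries, 40.4 to 42.5 with shAHR#2 and 44.5 to 52.1 with shAHR#3, or 35.3% ± 0.912 and 40.5% ± 3.39 (SD, n = 3) of the control. KRT8 and KRT18, keratins of simple epithelia, were at 275 to 390 CPM and the mesenchymal marker VIM at 2620 to 3950, whereas the basal keratins KRT5 and KRT14 did not pass 0.101 CPM in any library. Both marker lists moved with the groups: the 4 mesenchymal markers summed to 4369 to 4396 CPM in the control, 7070 to 7248 under shAHR#2 and 5752 to 5784 under shAHR#3, and the 7 epithelial markers to 677 to 713, 755 to 783 and 859 to 913 CPM. Their part in the results below was not tested. With RNA from whole cultures, fewer cells of a type and less RNA per cell cannot be told apart.

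With shAHR#2, 8 of the 9 tested members changed: PTGS2, PTGER2 and PTGES rose, and PTGFRN, PTGS1, PLA2G4A, HPGD and PTGES2 fell. With shAHR#3, PTGFRN and PTGES2 fell and the other 7 did not pass the test. The share called was 88.9% of tested members with shAHR#2, where 65.8% of all genes tested were called (32.6% higher and 33.2% lower). For shAHR#3 it was 22.2%, where 54.4% of all genes were called (26.9% higher and 27.5% lower). DESeq2 also placed 0 members higher with shAHR#3, and at an unadjusted p under 0.05 edgeR placed 1 there, PTGS2. Without control replicate 2 or shAHR#3 replicate 2, PTGFRN alone was called with shAHR#3. The mean of both constructs called 6 members, 2 higher (PTGS2 and PTGER2) and 4 lower (PTGFRN, PTGS1, PLA2G4A and PTGES2), against a background of 64.3% (31.5% higher, 32.9% lower). The members' median log2 fold change was -0.39 with shAHR#2 and -0.09 with shAHR#3, beside medians of -0.003 and -6.88e-05 over all genes.

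The hairpins were also set against each other. In that direct comparison 7 members differed, 4 higher with shAHR#3 (PTGS1, PTGES2, PLA2G4A and PTGFRN) and 3 lower (PTGS2, PTGES and PTGER2), where 42.3% of all genes differed (21.9% higher, 20.4% lower). Each of these 7 except PTGES lay on the same side of the control with both hairpins, by a smaller amount with shAHR#3, except that PLA2G4A with shAHR#3 went from -0.09 to 0.12 without control replicate 1. For PTGES the log2 fold change was 0.10 with shAHR#2 and -0.07 with shAHR#3, of which the second did not pass the test. Without shAHR#2 replicate 3 the count fell from 7 to 4. Both hairpins were compared with the same 3 control libraries, so their values are set side by side and are not independent. In CPM, the libraries did not overlap the control in 8 of 9 tested members with shAHR#2 (68.2% of all genes) and in 3 of 9 with shAHR#3, namely PTGS2, PTGES2 and PTGFRN (58.7% of all genes).

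**Figure D1:**
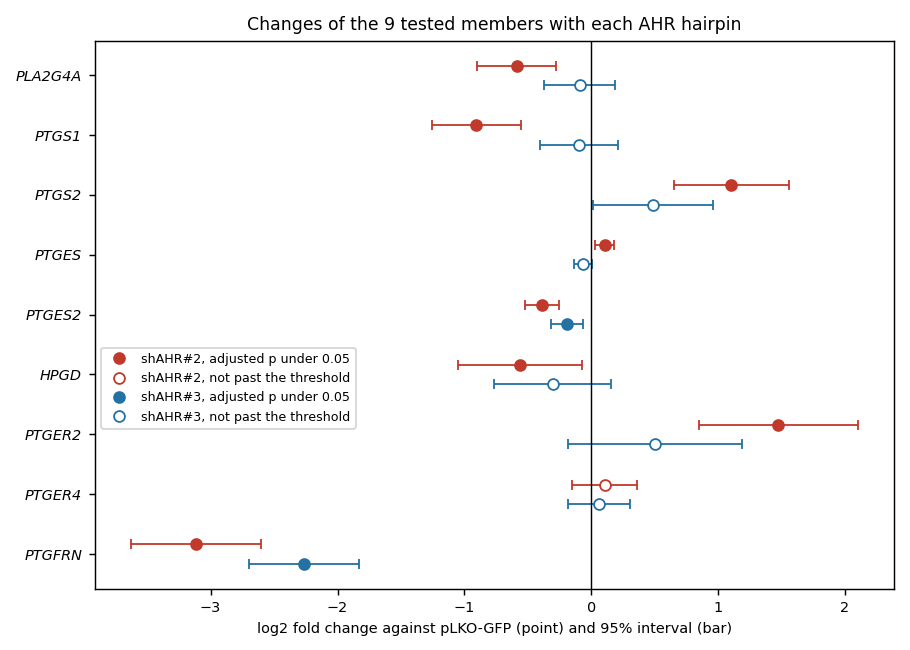
Log2 fold change of the 9 tested members against pLKO-GFP (x axis) for shAHR#2 (red) and shAHR#3 (blue), with 95% intervals as bars and filled points for an adjusted p under 0.05. PTGFRN lies far to the left with both hairpins, at -3.12 and -2.26, and PTGS2 and PTGER2 lie to the right, with points filled for shAHR#2 and open for shAHR#3.

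Per kilobase of exon, the control cells carried far more PTGES than any other member. Its level was 58.9 ± 1.52 CPM per kilobase (SD, n = 3), at percentile 96.2 of the tested genes. PTGES2 followed at 6.47 ± 0.296, then PLA2G4A at 2.57 ± 0.683 and PTGER4 at 1.84 ± 0.154, a pair whose SDs overlapped. Every PLA2G4A library (1.98 to 3.31) was nonetheless above every PTGER4 library (1.67 to 1.97). PTGFRN at 0.837 ± 0.0620 and PTGS1 at 0.791 ± 0.0689 were within their spread of each other, and their libraries overlapped. HPGD (0.420 ± 0.0921), PTGER2 (0.314 ± 0.0789) and PTGS2 (0.261 ± 0.0375) formed the low end, each within the spread of its neighbour in the order. PTGS2 stood at percentile 9.91 of tested genes and PTGIS had no read in the control. The enzyme that completes prostaglandin E was thus abundant as a transcript, and both cyclooxygenases that feed it were scarce: PTGES was 56.1 ± 4.01 times the sum of PTGS1 and PTGS2 per length.

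**Figure D2:**
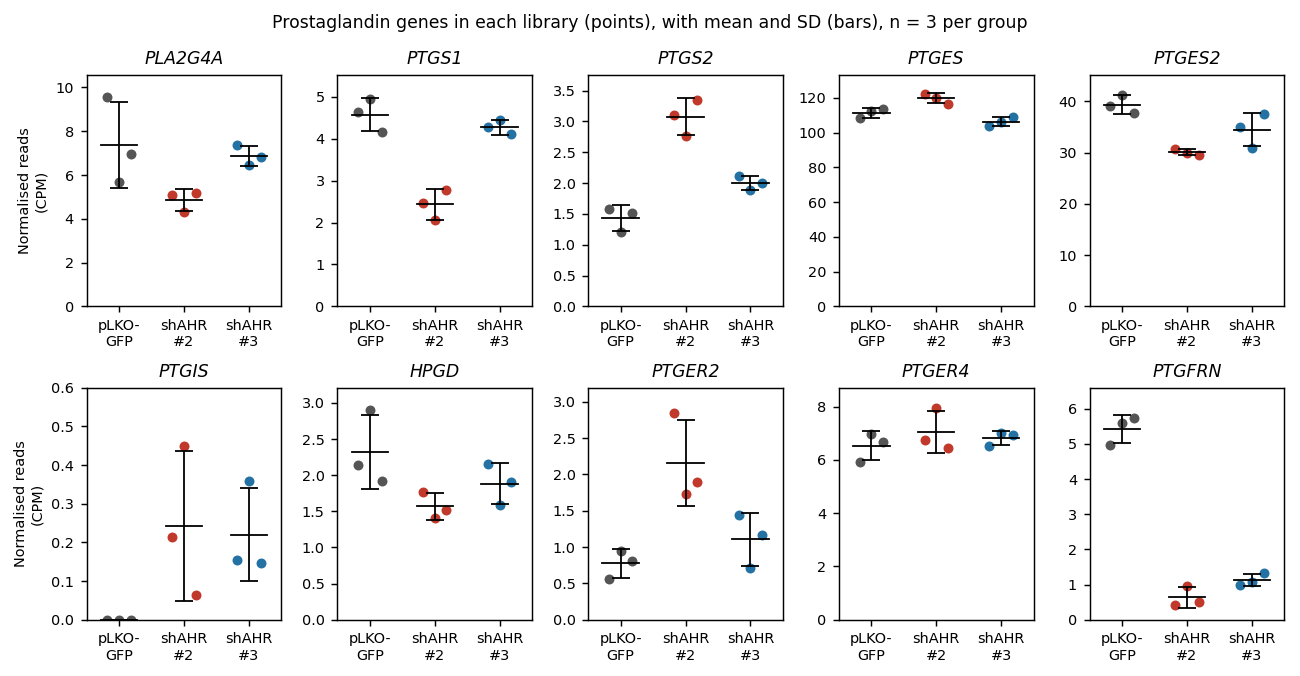
Normalised reads (CPM, y axes from 0) of each member in every library, by group, with the mean and SD (n = 3) as bars. PTGS1 is lower in the shAHR#2 libraries than in all others, PTGS2 is lowest in pLKO-GFP and highest with shAHR#2, PTGFRN sits near 5 CPM in the control and near 1 with both hairpins, and PTGIS is at 0 in all 3 control libraries.

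PLA2G4A, the cytosolic phospholipase A that frees arachidonic acid from membrane lipids (chromosome 1 of GRCh38, 186828949 to 186988981), fell with shAHR#2. Its level was 9.54, 5.69 and 6.94 CPM in pLKO-GFP replicates 1, 2 and 3, 5.09, 4.30 and 5.19 with shAHR#2 and 7.36, 6.45 and 6.84 with shAHR#3. All shAHR#2 libraries lay below all control libraries, while the shAHR#3 libraries lay inside the control range, which was wide because of control replicate 1. The log2 fold change was -0.59 (SE 0.15, edgeR adjusted p = 9.18e-04) with shAHR#2 and -0.09 (SE 0.14, adjusted p = 0.597) with shAHR#3. Without control replicate 1 the change with shAHR#2 was -0.37 (adjusted p = 0.0328), the uncalled value with shAHR#3 turned to 0.12, and the mean of both constructs went from -0.34 (adjusted p = 0.0165) to -0.12 (adjusted p = 0.426). The hairpins differed by 0.50 (adjusted p = 0.00788), or 0.41 (adjusted p = 0.0526) without shAHR#2 replicate 2.

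PTGS1, the cyclooxygenase usually regarded as constitutive (chromosome 9, 122370530 to 122395703), fell with shAHR#2 and stayed near its control level with shAHR#3. It was counted at 4.63, 4.94 and 4.15 CPM in the control, 2.47, 2.05 and 2.78 under shAHR#2 and 4.27, 4.45 and 4.10 under shAHR#3. The shAHR#2 libraries were the 3 lowest of the 9 and overlapped neither other group, on 32 to 99 reads per library. With shAHR#2 PTGS1 fell 1.87-fold (log2 fold change -0.91, SE 0.17, edgeR adjusted p = 2.16e-05). With shAHR#3 the log2 fold change was -0.10 (95% interval -0.41 to 0.21, adjusted p = 0.608), and the direct difference between the hairpins was 0.81 (SE 0.18, adjusted p = 2.37e-04). A lncRNA annotated within the same strand shared no exon base with PTGS1 and had no read.

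PTGS2, the inducible cyclooxygenase, went the other way and rose with shAHR#2 (chromosome 1, 186671791 to 186680922, minus strand; promoter printed above). Its values were 1.58, 1.20 and 1.52 CPM in the control, 3.11, 2.76 and 3.35 under shAHR#2 and 2.11, 1.89 and 2.00 under shAHR#3. The 3 groups did not overlap, with shAHR#3 in between, although these were 24 to 58 reads per library. The rise was 2.15-fold with shAHR#2 (log2 fold change 1.10, SE 0.22, edgeR adjusted p = 4.35e-05). With shAHR#3 the log2 fold change was 0.49 (SE 0.23, adjusted p = 0.0765). Between the hairpins the difference was -0.62 (adjusted p = 0.0148), or -0.56 (adjusted p = 0.0572) without shAHR#2 replicate 3. The antisense lncRNA PACERR shares 219 exon bases with PTGS2 and had 0 to 8 reads per library. Whether the counting used strand is not given, so reads of the 2 genes could mix there.

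The opposite movement of the cyclooxygenases changed their proportions. Per length, PTGS2 made up 24.9% ± 3.98 (SD, n = 3) of the summed PTGS1 and PTGS2 transcripts in the control, 57.2% ± 1.34 under shAHR#2 and 33.1% ± 1.83 under shAHR#3. The libraries ran from 20.4% to 27.8%, from 56.0% to 58.6% and from 31.0% to 34.3%, so PTGS2 was the larger part in every shAHR#2 library and in no other. The sum of both was 1.05 ± 0.0504, 0.982 ± 0.117 and 1.10 ± 0.0261 CPM per kilobase, and on this measure the libraries of all 3 groups overlapped. PTGS2 and PLA2G4A are neighbours on chromosome 1, 148 kilobases apart with 0 protein-coding genes between them, and they moved in opposite directions with shAHR#2.

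**Figure D3:**
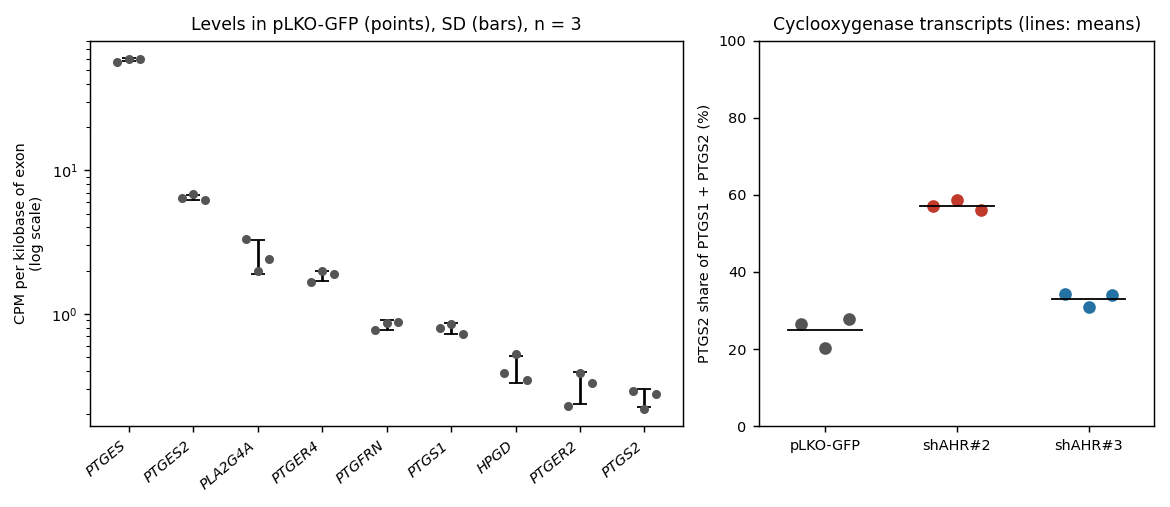
Left, per-length levels of the 9 members with reads in the 3 pLKO-GFP libraries (points, log axis) with SD, running from 58.9 for PTGES to 0.261 for PTGS2 CPM per kilobase. Right, the share of PTGS2 in the summed cyclooxygenase transcripts in each library (points) with group means (lines), 24.9% in the control, 57.2% under shAHR#2 and 33.1% under shAHR#3.

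PTGES, the inducible membrane enzyme that works with PTGS2 to make prostaglandin E (chromosome 9, 129738331 to 129753042), moved little. It stood at 108, 112 and 114 CPM in the control, 122, 120 and 117 under shAHR#2 and 104, 106 and 109 under shAHR#3. Every shAHR#2 library was above every control library by a small margin, and the shAHR#3 libraries overlapped the control. The log2 fold change was 0.10 (SE 0.04, edgeR adjusted p = 0.0106) with shAHR#2 and -0.07 (SE 0.04, adjusted p = 0.106) with shAHR#3. The first was not called without control replicate 1 (0.08, adjusted p = 0.0640) or shAHR#2 replicate 1 (0.09, adjusted p = 0.0510), and the second was called without shAHR#3 replicate 3 (-0.09, adjusted p = 0.0487). The direct difference of -0.17 (SE 0.04, adjusted p = 1.39e-04) was called whichever library was left out.

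PTGES2, a second enzyme with prostaglandin E synthase activity (chromosome 9, 128120693 to 128128462), was one of the members that fell with both hairpins. Its level was 39.1, 41.3 and 37.7 CPM in the control, 30.7, 30.0 and 29.5 under shAHR#2 and 35.1, 31.0 and 37.5 under shAHR#3. Both knockdown groups lay wholly below the control, by a narrow gap in the case of shAHR#3 replicate 3. The log2 fold change was -0.39 (SE 0.07, edgeR adjusted p = 2.45e-06) with shAHR#2 and -0.19 (SE 0.06, adjusted p = 0.00982) with shAHR#3. The fall with shAHR#3 was not called without control replicate 2 (-0.15, adjusted p = 0.0711) or shAHR#3 replicate 2 (-0.12, adjusted p = 0.130). The hairpins differed by 0.20 (adjusted p = 0.0135), which was not called without shAHR#2 replicate 3 (0.18, adjusted p = 0.0533) or shAHR#3 replicate 3 (0.13, adjusted p = 0.119).

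PTGIS, prostacyclin synthase, an enzyme best known from blood vessel walls, was at the limit of detection (chromosome 20, 49503874 to 49568137). It had 0 reads in each of the 3 control libraries, 4, 7 and 1 with shAHR#2 and 3, 7 and 3 with shAHR#3. A read was present in all 6 knockdown libraries. PTGIS had too few reads to be among the 14274 genes tested. Against a floor of 3 counts over the control group (0.0522 CPM), the summed reads were 4.60-fold higher with shAHR#2 (12 reads). With shAHR#3 (13 reads) they were 4.19-fold higher. The floor covers counting error of the control only. The hairpin reads were taken as counted, so these ratios are not lower bounds. In a fit without a filter on low counts edgeR's adjusted p was 0.00254 and 0.00420. The summed level of the endothelial markers PECAM1, CDH5 and VWF was 2.15 to 2.71 CPM in the control, 10.4 to 12.7 under shAHR#2 and 12.0 to 13.3 under shAHR#3. Only 1 of the 3, PECAM1, had enough reads to be tested, and CDH5 and VWF stayed at or below 0.586 CPM. The 5 fibroblast markers summed to 7.04 to 9.60, 9.63 to 11.6 and 12.0 to 14.1 CPM, with DCN at or below 0.0512, and 4 leukocyte markers to 1.47 to 1.82, 4.05 to 5.36 and 3.22 to 3.63 CPM, with CD3E at 0. The part of these in the PTGIS reads was not tested.

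HPGD, the dehydrogenase that starts the inactivation of prostaglandin E and is often described as a tumour suppressor (chromosome 4, 174490175 to 174523154), was lower with shAHR#2. Its values were 2.15, 2.90 and 1.92 CPM in the control, 1.77, 1.41 and 1.52 under shAHR#2 and 2.16, 1.59 and 1.90 under shAHR#3. The shAHR#2 libraries lay below the control and the shAHR#3 libraries overlapped it. The log2 fold change was -0.56 (SE 0.24, edgeR adjusted p = 0.0409) with shAHR#2 and -0.30 (SE 0.23, adjusted p = 0.264) with shAHR#3. This was the call closest to the threshold: DESeq2 gave an adjusted p of 0.0882, and edgeR 0.249 without control replicate 2 (log2 fold change -0.36), 0.117 without shAHR#2 replicate 2 (-0.49) and 0.0906 without shAHR#2 replicate 3 (-0.53). The mean of both constructs, at -0.43 (adjusted p = 0.0571), was called without control replicate 3 (-0.56, adjusted p = 0.0341) or shAHR#3 replicate 1 (-0.48, adjusted p = 0.0445). The 535 tested genes of chromosome 4 had a median of -0.30 with shAHR#2 and -0.23 with shAHR#3, and its part in the HPGD values was not tested. An antisense lncRNA that shares 314 exon bases with HPGD had no read in any library.

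PTGER2, a receptor for prostaglandin E that signals through cyclic AMP, showed the largest rise among the tested members (chromosome 14, 52314305 to 52328598; promoter printed above). It was counted at 0.565, 0.949 and 0.810 CPM in the control, 2.84, 1.73 and 1.90 under shAHR#2 and 1.44, 0.716 and 1.17 under shAHR#3. All shAHR#2 libraries were above the other 6, of which the shAHR#3 libraries overlapped the control. These were 10 to 53 reads per library. The rise with shAHR#2 was 2.78-fold (log2 fold change 1.47, SE 0.31, edgeR adjusted p = 7.66e-05), and with shAHR#3 the log2 fold change was 0.50 (95% interval -0.18 to 1.19, adjusted p = 0.215). Between the hairpins it differed by -0.97 (SE 0.29, adjusted p = 0.00582), or by -0.72 (adjusted p = 0.0902) without shAHR#2 replicate 1 and -0.74 (adjusted p = 0.0504) without shAHR#3 replicate 2. The 456 tested genes of chromosome 14 had a median of 0.23 with shAHR#2 and 0.15 with shAHR#3, and its part was not tested.

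PTGER4, the other receptor of this kind, was the member with the smallest movement against the control with shAHR#3 and passed no test (chromosome 5, 40679915 to 40693735). Its level was 5.93, 6.99 and 6.68 CPM in the control, 6.76, 7.96 and 6.45 under shAHR#2 and 6.53, 7.01 and 6.93 under shAHR#3. The 3 groups overlapped. The log2 fold change was 0.10 (95% interval -0.15 to 0.36, edgeR adjusted p = 0.478) with shAHR#2 and 0.06 (95% interval -0.19 to 0.31, adjusted p = 0.706) with shAHR#3, so rises above 0.36 and 0.31 and falls beyond -0.15 and -0.19 lie outside the intervals. The 656 tested genes of chromosome 5 had medians of -0.48 and -0.26, below PTGER4. TTC33, on the other strand, overlaps PTGER4 in position but shares 0 exon bases with it, and had 329 to 666 reads. Per length, PTGER2 was 14.4% ± 2.17 (SD, n = 3) of the summed PTGER2 and PTGER4 transcripts in the control, 30.4% ± 6.95 under shAHR#2 and 18.8% ± 5.67 under shAHR#3, so PTGER4 was the larger part in every group.

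PTGFRN had the largest change of the 9 tested members and fell with both hairpins (chromosome 1, 116909916 to 116990353; promoter printed above). Despite its name, prostaglandin F receptor negative regulator, it is a membrane protein of the immunoglobulin superfamily that binds tetraspanins, chiefly CD9 and CD81. It was counted at 4.97, 5.59 and 5.72 CPM in the control (88, 112 and 113 reads), 0.429, 0.963 and 0.506 under shAHR#2 (8, 15 and 8 reads) and 0.977, 1.07 and 1.32 under shAHR#3 (19, 21 and 27 reads). The lowest control library was well above every knockdown library, and the shAHR#2 libraries lay just below those with shAHR#3. PTGFRN was at 11.7% ± 5.32 and 20.7% ± 3.24 (SD, n = 3) of its control level. It fell 8.67-fold with shAHR#2 (log2 fold change -3.12, SE 0.25, edgeR adjusted p = 1.40e-13) and 4.81-fold with shAHR#3 (-2.26, SE 0.21, adjusted p = 1.78e-11), and leaving out any one library gave -3.53 to -2.87 and -2.40 to -2.17.

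The hairpins differed in PTGFRN by 0.85 (SE 0.33, edgeR adjusted p = 0.0356), a call that rested on few reads. DESeq2 gave an adjusted p of 0.0544. With edgeR it was 0.197 without shAHR#2 replicate 1 (log2 difference 0.61), 0.117 without shAHR#2 replicate 3 (0.73), 0.0509 without shAHR#3 replicate 2 (0.88) and 0.127 without shAHR#3 replicate 3 (0.72). The name of PTGFRN refers to the receptor PTGFR, which was at 0.452, 0.649 and 0.557 CPM in the control, 1.18, 0.706 and 1.20 under shAHR#2 and 0.617, 0.461 and 0.488 under shAHR#3. PTGFR had a log2 fold change of 0.89 (adjusted p = 0.0340) and -0.09 (adjusted p = 0.867), on 8 to 22 reads per library.

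Transcripts of most tetraspanins listed with PTGFRN moved the other way, though not all of these are established as its partners here. Of 6 genes listed with PTGFRN, 5 rose for the mean of both constructs (CD9, CD151, CD82, CD63 and CD81). IGSF8, a relative of PTGFRN, did not pass edgeR's test (log2 fold change 0.12, adjusted p = 0.275). CD9, a tetraspanin of cell adhesion and fusion, led them at 135, 147 and 138 CPM in the control, 282, 292 and 288 under shAHR#2 and 280, 276 and 278 under shAHR#3. The groups with a hairpin stood apart from the control and close to each other, with log2 fold changes of 1.04 and 0.99 (SE 0.03 in both, edgeR adjusted p = 1.61e-26 and 1.49e-25). CD151 followed at 0.40 and 0.26, while CD82, CD63 and CD81 rose by 0.15, 0.13 and 0.12 on the log2 scale for the mean of both. CD81 passed edgeR's test with shAHR#2 (0.17, adjusted p = 6.86e-05) and not with shAHR#3 (0.06, adjusted p = 0.115). The list's median was 0.14, beside -0.004 over all genes, of which 31.5% were called higher. Per length, CD9 was 28.8 ± 1.69 times PTGFRN in the control, 567 ± 205 times with shAHR#2 and 280 ± 42.4 times with shAHR#3.

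**Figure D4:**
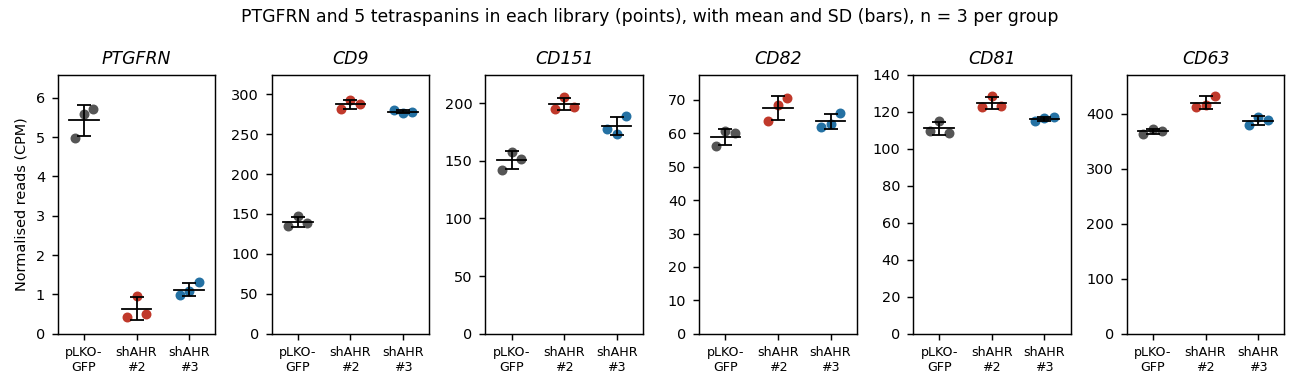
Normalised reads (CPM, y axes from 0) of PTGFRN and 5 tetraspanins in each library, with the mean and SD (n = 3) as bars. PTGFRN falls from a mean of 5.43 CPM in pLKO-GFP to 0.633 with shAHR#2 and 1.12 with shAHR#3, while CD9 goes from 140 to 287 and 278, with smaller steps in CD151, CD82, CD81 and CD63.

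The other genes of the pathway were read from 8 further lists, in which a gene counted when it passed the test for the mean of both constructs (background 64.3%). Of 17 genes of arachidonate release 9 were tested, and 4 rose and 3 fell. PLA2G6, a calcium-independent phospholipase, rose by a log2 fold change of 0.86 with shAHR#2 and 0.85 with shAHR#3, from a mean of 2.04 CPM to 3.73 and 3.69. PLAAT3 (0.40 for the mean of both), ABHD6 (0.41), which hydrolyses monoacylglycerols, and PLA2G4C (0.93, on a control level of 0.408 CPM) were also higher. PLA2G4C did not pass with shAHR#3 alone (0.59, edgeR adjusted p = 0.271). FAAH, the hydrolase of anandamide, had 15 to 19 reads in the control libraries and fell, to 3 to 7 under shAHR#2 and 4 to 9 under shAHR#3 (log2 fold change -1.64 and -1.38). It passed the filter on low counts only through its control libraries, where it was high, so only a fall could be called. PLA2G12A (-0.68) and the diacylglycerol lipase DAGLB (-0.49) fell as well. The median of the list was 0.01, beside -0.004 over all genes.

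Genes that supply arachidonate or return it to membranes moved mostly upward. Of the 7 tested, 5 rose (LPCAT3, ACSL3, FADS2, FADS1 and ELOVL5), 2 fell (ACSL4 and MBOAT7), and the median was 0.30. With shAHR#3 alone, ELOVL5 (0.03, edgeR adjusted p = 0.292) and MBOAT7 (-0.04, adjusted p = 0.639) did not pass the test. FADS2 and FADS1, the desaturases that make arachidonic acid from its plant-derived precursor, had log2 fold changes of 0.63 and 0.30 for the mean of both. LPCAT3, which puts polyunsaturated chains into phospholipids, went from 45.0 ± 1.19 CPM to 69.4 ± 1.47 and 79.4 ± 2.79 (SD, n = 3). ACSL3, an acyl-CoA ligase, rose from 226 to 396 and 339 CPM, while ACSL4, the ligase that prefers arachidonate, fell from 238 to 214 and 151. In this pair of ligases every rise and fall passed edgeR's test with each hairpin.

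**Figure D5:**
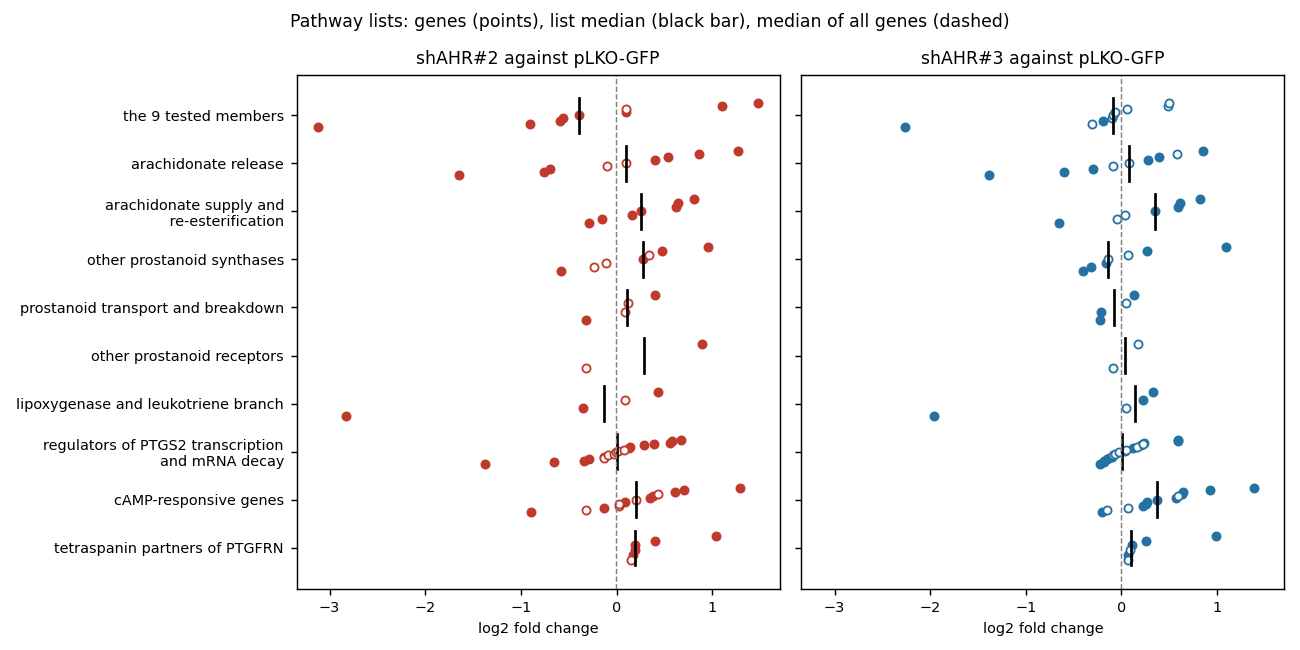
Log2 fold change against pLKO-GFP of every tested gene (points, filled when the adjusted p was under 0.05) in the members and in the pathway lists, for shAHR#2 (left) and shAHR#3 (right), with the list median as a black bar and the median of all genes as a dashed line. With both hairpins the medians lie to the right of the dashed line for arachidonate supply (0.26 and 0.35) and genes that respond to cyclic AMP (0.20 and 0.38). So does the median of the genes listed as partners of PTGFRN (0.19 and 0.10), and the members lie to its left (-0.39 and -0.09).

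Of 9 other prostanoid synthases and reductases 7 were tested, and 3 rose and 3 fell. AKR1C3, a reductase that makes prostaglandin F and also acts on steroids, had 18.1, 18.9 and 16.6 CPM in the control, 19.5, 21.2 and 24.3 under shAHR#2 and 37.0, 38.0 and 39.8 under shAHR#3. Here the shAHR#3 libraries were the highest, at a log2 fold change of 1.10 against 0.27 with shAHR#2. PTGES3, also called p23, is both a cytosolic prostaglandin E synthase and a co-chaperone that holds unliganded AHR in its complex, and it rose from 603 ± 11.0 CPM to 840 ± 18.5 and 727 ± 24.5 (log2 fold change 0.48 and 0.27, edgeR adjusted p = 3.95e-18 and 5.57e-11). TBXAS1, thromboxane synthase, went from 13.6 CPM to 26.4 with shAHR#2 (0.95, adjusted p = 8.71e-13) and was at 12.3 with shAHR#3 (-0.15, adjusted p = 0.174). AKR1B1, which also makes prostaglandin F, fell with both hairpins (-0.59 and -0.16), and for the mean of both so did the carbonyl reductases CBR1 (-0.21, adjusted p = 7.18e-05) and CBR3 (-0.32, adjusted p = 0.00449). With shAHR#2 alone, neither CBR1 nor CBR3 passed edgeR's test (adjusted p = 0.0582 and 0.0664).

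Of the 4 tested genes of transport and breakdown, 2 rose and 1 fell for the mean of both. PTGR1 and PTGR2, which reduce the product of HPGD further, rose by 0.13 and 0.23 on that measure, PTGR2 with 0.41 under shAHR#2 (edgeR adjusted p = 5.12e-05) and 0.05 under shAHR#3 (adjusted p = 0.625). PTGR1 did not pass with shAHR#2 alone (0.12, adjusted p = 0.0571). PTGR3, a reductase of the same step, did not pass for the mean (-0.07, adjusted p = 0.352) and fell with shAHR#3 (-0.23, adjusted p = 0.00947). ABCC4, a pump that exports prostaglandin E, fell from 75.1 ± 2.46 CPM to 60.4 ± 3.67 and 64.9 ± 2.66 (log2 fold change -0.32 and -0.21). Of the 7 other prostanoid receptors only PTGFR and TBXA2R, the thromboxane receptor, had enough reads to be tested, and neither passed for the mean of both with edgeR (TBXA2R -0.07, adjusted p = 0.759; PTGFR 0.40, adjusted p = 0.312). In the lipoxygenase and leukotriene branch 12 of 16 genes had too few reads, ALOX5 among them. Of the 4 tested, LTA4H (0.38) and MGST2 (0.16) rose and EPHX2 (-2.39) and MGST3 (-0.15) fell. EPHX2, the soluble epoxide hydrolase, had 9 to 15 reads in the control and 1 to 2 and 2 to 5 with the hairpins. It passed the filter on low counts only through its control libraries, where it was high, so only a fall could be called. EPHX2 was listed with this branch but is not a lipoxygenase or an enzyme of leukotriene synthesis. MGST2 did not pass with shAHR#2 alone (0.09, edgeR adjusted p = 0.248), nor MGST3 with shAHR#3 alone (0.05, adjusted p = 0.459).

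Regulators of PTGS2 and genes that respond to cyclic AMP were in part split between the hairpins. Of 18 factors that act on PTGS2 transcription or the stability of its mRNA, 7 rose and 6 fell for the mean of both, with a median of 0.02. Among the 18, 4 were called in opposite directions with the 2 hairpins, where 2.03% of all genes tested were (290 of 14274). These were FOS (-1.37 with shAHR#2 and 0.60 with shAHR#3), CEBPB (-0.34 and 0.12), JUN (0.58 and -0.18) and ZFP36L1 (0.55 and -0.10). ZFP36L1 is a protein that destabilises mRNAs. ZFP36L2, of the same family, fell with both (-0.65 and -0.18), as did HNRNPD (-0.29 and -0.22), while SP1 (0.29 and 0.20) and the translational repressor TIA1 (0.40 and 0.23) rose with both. FOS was at 3.33 ± 0.105 CPM in the control, 1.29 ± 0.255 under shAHR#2 and 5.02 ± 0.894 under shAHR#3 (SD, n = 3).

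Of 14 genes induced by cyclic AMP, the messenger of PTGER2 and PTGER4, 13 were tested, and 6 rose and 1, AREG, fell for the mean of both, with a median of 0.18. NR4A1 (1.29 and 1.39, on 6 to 36 reads per library), JUNB (0.62 and 0.63) and the phosphodiesterase PDE4B (0.70 and 0.38) were the largest rises shared by both hairpins. NR4A1 passed the filter on low counts only through its hairpin libraries, where it was high, so the filter favoured a rise. With shAHR#3 alone 9 of the 13 rose and 1 fell, where 26.9% of all genes tested were called higher and 27.5% lower. With shAHR#2 6 rose and 2 fell, where 32.6% of all genes were called higher and 33.2% lower. In this list 3 genes were called in opposite directions, against the same 2.03% of all genes, CREM (0.38 and -0.21), CITED2 (-0.13 and 0.23) and AREG, a growth factor (-0.89 and 0.27). AREG was at 56.4 ± 1.98 CPM in the control, 30.4 ± 1.46 under shAHR#2 and 68.1 ± 2.53 under shAHR#3.

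Over the 9 libraries, the genes outside these lists whose pattern was most like that of PTGS1 were PCDHB14, a protocadherin (Pearson r = 0.987 of log2 CPM), CHN1, a GTPase-activating protein (0.986), and SMC6, a subunit of a complex that maintains chromosomes (0.984). PCDHB14 ran from 12.7 to 14.7 CPM in the control, 1.09 to 3.10 under shAHR#2 and 10.4 to 11.3 under shAHR#3. These are descriptions over 9 libraries that share 3 groups. All 3 genes have their low values in the shAHR#2 libraries, as PTGS1 does.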

How the data were processed

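MDA-MB-231 cells carrying pLKO-GFP, shAHR#2 or shAHR#3 were sequenced as stranded mRNA libraries, 3 per group. The authors deposited unnormalized read counts for each gene as whole numbers, and the submitters' processing notes name FastQC, STAR, featureCounts (Subread) and GRCh38.p13, with no versions. The annotation release and the use of strand in counting are not given in the sources used here, so overlapping and antisense genes are uncertain. Total counts were 15991396 to 20374460 per library. The labels do not say that replicates came from separate cultures, so p-values measure only the spread between these libraries, which may be technical.

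Counts were filtered with filterByExpr (minimum count 10, minimum total count 15), scaled by TMM and tested with edgeR 4.0.16 (glmQLFit, glmQLFTest) in R 4.3.3, in one fit of 9 libraries with a mean per group, adjusted by Benjamini-Hochberg over 14274 genes. Each standard error was the absolute fold change over the root of its F value. Per-length levels divided CPM by the exon length in GENCODE release 44, which held 60507 of the table's identifiers. Figures were drawn with matplotlib 3.10.9. On simulated data in which few genes changed and all shared the same spread, edgeR recovered most known changes of the mean of both constructs. These data differ from that setting, with many genes called and few reads in some members. Promoter windows came from RefSeq on GRCh38.p14, trimmed to the bases before the start. The floor used for PTGIS covers counting error of the control only, and reads carried no molecular identifiers.

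Members and lists were chosen with earlier results of these data known. All members were named, and, from each list, at most the 3 largest rises and 3 largest falls of the mean of both constructs among genes called in the same direction with each. For PTGS1, the cyclooxygenase with the larger total count, the 3 tested genes with the highest Pearson r were named. Genes named beyond this rule were chosen after their values were seen: PLA2G4C, FADS1, ELOVL5, MBOAT7, TBXAS1, CBR1, CBR3, PTGR1, PTGR2, PTGR3, PTGFR, TBXA2R, MGST2, MGST3, FOS, JUN, CEBPB, ZFP36L1, CREM, CITED2, AREG, CD81, CD63 and IGSF8. Alternatives were DESeq2 1.42.0 (the study's tool), its size factors in edgeR, no filter, a mean of at least 50 counts, a fit of the compared groups alone, a block for the replicate number, leaving out each library, an adjusted p under 0.01 and an absolute log2 fold change of at least 1. One leukocyte marker of the list is not reported here and was left out of its sum.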

Additional observations from a re-analysis of the deposited data

Results flagged for a closer look

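The 2 hairpins against AHR differed from each other in 7 members by edgeR's direct test of shAHR#3 against shAHR#2 (adjusted p under 0.05; 42.3% of all genes differed). The log2 difference, shAHR#3 minus shAHR#2, was 0.81 for PTGS1, 0.50 for PLA2G4A, 0.85 for PTGFRN and 0.20 for PTGES2, and -0.62 for PTGS2, -0.97 for PTGER2 and -0.17 for PTGES. AHR itself differed by 0.19, being less reduced with shAHR#3.

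The same test separated the hairpins in 32 other named genes, 12 of them higher with shAHR#3. Among genes that release or supply arachidonate the difference was 0.40 for DAGLB, 0.20 for LPCAT3, 0.094 for FADS1 and 0.24 for MBOAT7, and -0.26 for ABHD6, -0.23 for ACSL3, -0.50 for ACSL4 and -0.13 for ELOVL5. Among genes that make, change or receive prostanoids or leukotrienes it was 0.83 for AKR1C3, 0.43 for AKR1B1 and 0.40 for MGST3, and -1.10 for TBXAS1, -0.98 for PTGFR, -0.35 for PTGR2, -0.32 for PTGR3, -0.21 for PTGES3, -0.20 for CBR1 and -0.11 for LTA4H. Among regulators of PTGS2 it was 1.97 for FOS, 0.48 for ZFP36L2 and 0.46 for CEBPB, and -0.76 for JUN, -0.65 for ZFP36L1, -0.17 for TIA1 and -0.082 for SP1. Among genes that respond to cyclic AMP it was 1.16 for AREG and 0.36 for CITED2, and -0.59 for CREM and -0.32 for PDE4B. Among tetraspanins it was -0.14 for CD151, -0.12 for CD63 and -0.10 for CD81.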

How the results depend on the processing

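Among the recomputed member values, 535 kept their direction and their side of the threshold, 45 kept the direction but lost the call, 3 gained a call and 4 turned in direction, all 4 uncalled and on leaving out 1 library. With each library left out, the log2 fold change of PLA2G4A with shAHR#3 ran from -0.25 to 0.12 and that of PTGER4 from -0.00244 to 0.11, the mean of both constructs for PTGES from -0.00166 to 0.033, and the difference between the hairpins for PTGER4 from -0.11 to 0.037. Counts of members called then ran from 7 to 8 with shAHR#2, 1 to 3 with shAHR#3, 5 to 7 for the mean of both and 4 to 7 between the hairpins. Where genes under a mean of 50 counts were left out they were 4, 1, 3 and 4, because members with fewer reads leave the test, and at an absolute log2 fold change of at least 1 they were 3, 1, 1 and 0. At an adjusted p under 0.01 the count between the hairpins was 4. For the mean of both, a fit of only the groups compared uses all 3 groups and gives no new value. Counts of called genes in the other lists stayed within 1.5 times under each setting run. A block for the replicate number changed no member's call, with counts of 8, 2, 6 and 7, and moved the calls over all genes from 9390 to 9406 with shAHR#2. The labels do not say whether equal numbers pair the samples. Deviations from group means correlated weakly for equal numbers, by 0.00314 to 0.0578 (9 pairs, 0 over 0.1). Other pairs correlated by -0.068 to 0.0234, and the equal number was highest in 15 of 18 comparisons. Depth limits PTGS1, PTGS2, PTGER2, HPGD and PTGFRN, which had 8 to 113 reads per library, and leaves PTGIS as a ratio to a floor.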
